A study of Mus musculus with 12 samples.

Results

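The WNK kinases, the STE20-type kinases they activate, and the cation-chloride cotransporters that those kinases act on were followed in dopaminergic neurons of the mouse midbrain. The group holds 9 genes chosen by name, Wnk1, Wnk2, Wnk3, Wnk4, Stk39, Oxsr1, Slc12a2, Slc12a5 and Slc12a7. Of these, 8 had a row among the 23079 genes of the count table, and Wnk3 was not analysed here. The genes were proposed with earlier differences between the regions in these data known. Their differences between regions are therefore given as a description, with no p-value, and they support nothing.

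The 5 libraries from the substantia nigra pars compacta, here SNpc, and the 5 from the ventral tegmental area, here VTA, were all made from dopaminergic neurons of C57BL/6 mice. The labels call the material TRAP samples, read here as RNA pulled down with tagged ribosomes from a chosen cell type. The line that carries the tag, the age and sex of the animals and any pooling are not stated in the sources at hand. Whether libraries stem from separate animals is not stated either, so p-values measure only the spread between libraries, which may be technical.

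Each region was deposited as 6 columns. In each region 1 pair of columns held the same count for every gene, SNpc columns 4 and 5 and VTA columns 2 and 3. They differed by less than the sampling noise and were counted as 1 sample each, SNpc library 4 and VTA library 2. Total counts ran from 62951005 to 65959443 reads in SNpc and from 62356964 to 81393907 reads in VTA. The 6 dopaminergic markers checked, Th, Slc6a3, Slc18a2, Ddc, Nr4a2 and Pitx3, summed to 9464.5 to 13760 CPM in SNpc and to 4807 to 7919 CPM in VTA, where CPM is the count of a gene scaled to a common library size. Slc6a3, the dopamine transporter, averaged 5256 ± 635 CPM in SNpc and 2499 ± 580 CPM in VTA. The 10 oligodendrocyte markers summed to 1478 CPM in SNpc library 4, against 285 to 530 CPM in the other SNpc libraries and 725 to 897 CPM in VTA. The 10 astrocyte markers summed to 266 to 466 CPM in SNpc and 457 to 609 CPM in VTA, with SNpc library 4 again the highest of its region. The 5 markers of glutamate neurons summed to 29.1 to 91.6 CPM in SNpc and 115 to 160 CPM in VTA. In both the astrocyte and the glutamate list, a single marker made up most of the sum in each region. The sums therefore do not show that the markers of a list differ alike. Whether RNA of these markers came from the dopaminergic neurons themselves or from other cells was not tested. No marker of these lists was at 0 in all libraries, and apart from the covariate fit given below their part in the differences of the members was not tested. In such bulk material, fewer cells of a type and less RNA per cell cannot be told apart.

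WNK kinases, named for the missing lysine in their catalytic site ("with no lysine"), sense chloride and osmotic stress: chloride bound to the kinase holds it inactive. Active WNK kinases phosphorylate SPAK, the product of Stk39, and OSR1, the product of Oxsr1. These in turn phosphorylate the cotransporters, which activates NKCC1 (Slc12a2), a carrier that brings sodium, potassium and chloride into the cell, and inhibits the potassium-chloride exporters KCC2 (Slc12a5) and KCC4 (Slc12a7). The balance of NKCC1 and KCC2 sets neuronal chloride and with it whether GABA-A receptors hyperpolarise or depolarise a neuron. In the rat, dopaminergic neurons of the substantia nigra have been described as lacking KCC2 protein.

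Of the kinases, Wnk1, Wnk2 and Oxsr1 were lower in SNpc and Stk39 was higher, while the libraries of Slc12a2 and Slc12a5 overlapped between the regions. Of the 8 members, 5 had libraries that did not overlap between the regions, where 26.6% of all 15685 genes tested did not overlap. The same 5 were past an adjusted p of 0.05 in the edgeR fit over all genes, 1 higher in SNpc and 4 higher in VTA. That threshold was passed by 38.2% of all genes tested, by 17.8% as higher in SNpc and by 20.4% as higher in VTA. Because the members were proposed with this contrast in view, nothing is read from these counts. The median log2 fold change of all genes tested, SNpc minus VTA as everywhere below, was -0.044.

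**Figure D1:**
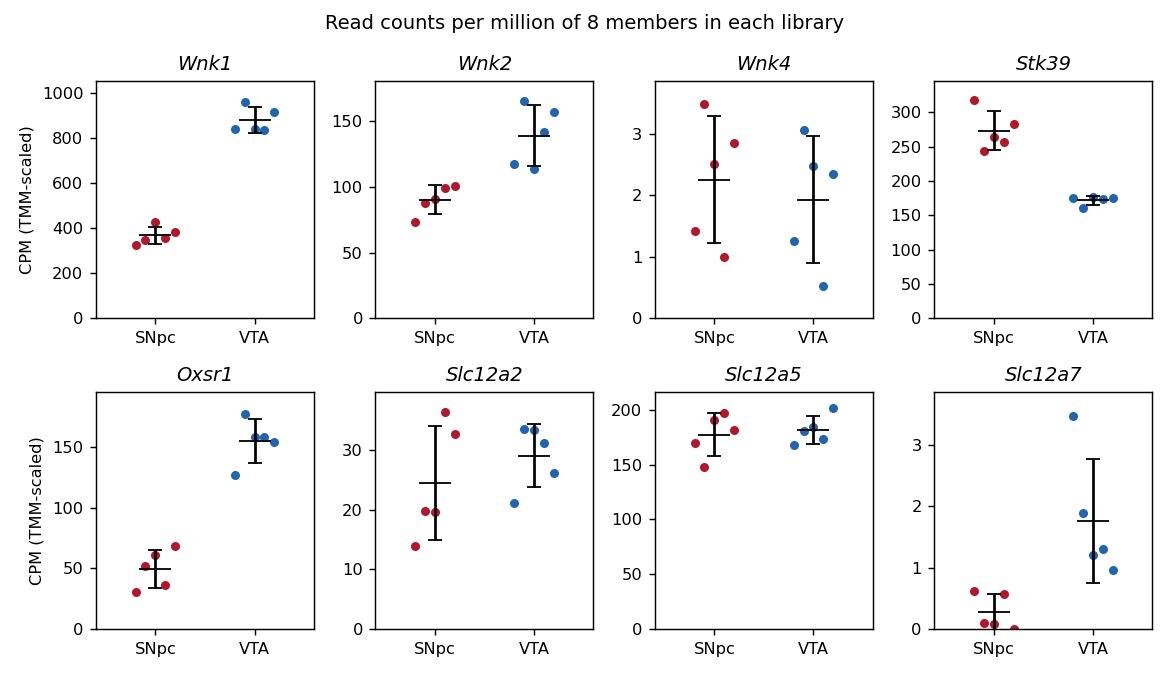
CPM of 8 members in each library (points; TMM-scaled, linear axes from 0) with the mean and SD of the 5 libraries of each region; the lower SD bar of Slc12a7 in SNpc is clipped at 0. Wnk1, Wnk2, Oxsr1 and Slc12a7 were lower in all SNpc libraries than in any VTA library, Stk39 was higher, and Wnk4, Slc12a2 and Slc12a5 overlapped.

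Wnk1 is the most widely expressed WNK kinase (Entrez 232341, mm10 chromosome 6, 119923969 to 120038695, minus strand). It had 327, 349, 425, 354 and 384 CPM in SNpc libraries 1, 2, 3, 4 and 6, against 841, 962, 841, 835 and 918 CPM in VTA libraries 1, 2, 4, 5 and 6. Every SNpc library was below every VTA library by a wide margin. The means were 368 ± 37.7 CPM in SNpc, against 879 ± 57.6 CPM in VTA (SD over 5 libraries each), a log2 fold change of -1.26 with a standard error of 0.089, or 2.39-fold higher in VTA. Wnk1 transcripts are long, with a longest annotated form of 11330 bases. Among all genes tested, the median log2 fold change was -0.42 over the 3697 with a longest transcript of 4867 bases or more, and 0.30 over the 3703 with one of 2245 bases or less. With the trend of transcript length and GC content removed, the log2 fold change of Wnk1 was -0.69.

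Wnk2, a neuronal WNK kinase (Entrez 75607, chromosome 13, 49036302 to 49148574, minus strand), showed the same order of regions with a smaller difference. Its values were 73.4, 87.5, 90.9, 99.4 and 101 CPM in the SNpc libraries, in the order given for Wnk1, against 118, 166, 114, 142 and 157 CPM in the VTA libraries. The highest SNpc library lay just below the lowest VTA library. The log2 fold change was -0.62 ± 0.12 (SE), but -0.055 with the length and GC trend removed, so the regional difference of Wnk2 was no larger than its standard error after that correction. What part transcript length has in the difference was not tested further.

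Wnk4, best known from the distal nephron of the kidney (Entrez 69847, chromosome 11, 101260537 to 101277409, plus strand), was low. Counts ran from 65 to 214 reads in SNpc and from 36 to 203 reads in VTA, or 2.25 ± 1.03 CPM in SNpc, against 1.93 ± 1.03 CPM in VTA (SD over 5 libraries each). The regions overlapped over nearly their whole range, and the log2 fold change was 0.22 ± 0.53 (SE). The sign of that value turned with glial markers as a covariate (-0.30), with the 12 columns as deposited (-0.054), with the replicate block (-0.15) and without VTA library 5 (-0.020). Its exons share 306 bases, 7.38% of their union, with the antisense gene Gm11615. No strand setting is given for the counts, so reads of both genes cannot be told apart there.

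The 2 STE20-type kinases differed in opposite directions. Stk39, which encodes SPAK (Entrez 53416, chromosome 2, 68210445 to 68472108, minus strand), had 318, 244, 264, 257 and 284 CPM in the SNpc libraries, against 174, 160, 177, 174 and 175 CPM in the VTA libraries. All SNpc libraries were above all VTA libraries, and the VTA libraries lay close together. The means were 273 ± 28.8 CPM in SNpc, against 172 ± 6.79 CPM in VTA (SD over 5 libraries each). The log2 fold change was 0.67 ± 0.089 (SE), or 1.59-fold higher in SNpc. It stayed between 0.61 and 0.75 under every one of the 19 alternatives, the length and GC correction and the glial covariate among them.

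Oxsr1, which encodes the close relative OSR1 (Entrez 108737, chromosome 9, 119238432 to 119322684, minus strand), had 30.4, 51.7, 60.7, 36.7 and 68.2 CPM in the SNpc libraries, against 127, 177, 159, 159 and 154 CPM in the VTA libraries. No SNpc library reached 70 CPM and no VTA library was under 120 CPM. The means were 49.5 ± 15.9 CPM in SNpc, against 155 ± 18.2 CPM in VTA (SD over 5 libraries each), a log2 fold change of -1.65 ± 0.19 (SE), or 3.13-fold higher in VTA. Over the 19 alternatives the value ran from -1.81 to -1.49, and it was -1.50 with the length and GC trend removed.

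SPAK and OSR1 have largely overlapping substrates, so their ratio within a library was also formed, from levels scaled by the length of each gene's exon union. Stk39 stood at 11.3, 5.09, 4.70, 7.56 and 4.49 times the level of Oxsr1 in the SNpc libraries, against 1.49, 0.974, 1.20, 1.18 and 1.23 times in the VTA libraries. Stk39 thus exceeded Oxsr1 by a wide margin in every SNpc library, whereas the ratio lay near 1 in VTA. The mean ratio was 6.63 ± 2.88 in SNpc, against 1.21 ± 0.183 in VTA (SD over 5 libraries each). Scaled by the longest transcript, the mean ratio was 8.07 in SNpc and 1.48 in VTA. The ratio of Wnk1 to Wnk2 lay between 1.33 and 1.74 in SNpc and between 2.15 and 2.75 in VTA, again without overlap. These ratios restate the differences above and are no separate evidence of them.

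**Figure D2:**
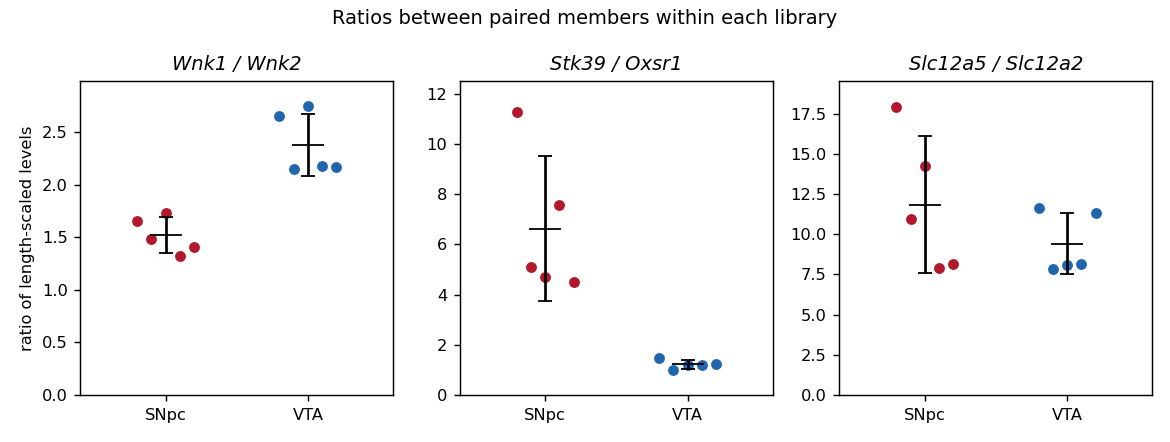
Ratio of length-scaled levels (CPM per kilobase of exon union) of 3 pairs of members in each library (points), with the mean and SD of the 5 libraries of each region. The ratio of Stk39 to Oxsr1 was 4.49 or more in SNpc and 1.49 or less in VTA, while the ratio of Slc12a5 to Slc12a2 overlapped between the regions.

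The sequences before the starts of Wnk1, Oxsr1 and Stk39 are shown because these 3 genes carry the largest differences among the well-detected members, Wnk1 and Oxsr1 toward VTA and Stk39 toward SNpc. Each is the 250 bases before a RefSeq start of its gene (GRCm38.p6, the assembly also called mm10). All are written 5′ to 3′ on the gene's own strand, which is minus for all 3. They lie at chr6:120038656-120038905, chr9:119322428-119322677 and chr2:68471982-68472231. The Oxsr1 window lies wholly inside the gene span given above, and the Wnk1 and Stk39 windows run into theirs. None of them therefore lies fully upstream of its gene span. Capitals mark matches on either strand to a motif.
Wnk1: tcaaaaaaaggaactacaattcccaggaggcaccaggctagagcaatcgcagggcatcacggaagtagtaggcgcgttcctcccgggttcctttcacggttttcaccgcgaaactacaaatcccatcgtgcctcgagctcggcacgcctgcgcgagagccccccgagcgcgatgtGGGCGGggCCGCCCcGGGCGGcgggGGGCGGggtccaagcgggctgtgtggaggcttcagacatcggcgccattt
Oxsr1: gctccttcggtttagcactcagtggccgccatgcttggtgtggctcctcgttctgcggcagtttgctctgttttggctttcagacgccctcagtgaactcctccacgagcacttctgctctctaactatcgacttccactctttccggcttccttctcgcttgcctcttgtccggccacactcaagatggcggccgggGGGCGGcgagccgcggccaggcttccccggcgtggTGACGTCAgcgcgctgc
Stk39: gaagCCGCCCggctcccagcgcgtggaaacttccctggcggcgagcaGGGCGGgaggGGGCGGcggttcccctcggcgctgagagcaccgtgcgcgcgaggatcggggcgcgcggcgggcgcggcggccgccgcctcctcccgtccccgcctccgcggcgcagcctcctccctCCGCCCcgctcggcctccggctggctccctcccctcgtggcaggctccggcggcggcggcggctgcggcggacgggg

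Both motifs, the GC box GGGCGG and the cAMP response element TGACGTCA, were picked after these sequences had been read, and no match overlapped another. A GC box was found in 32.7% of all 32851 windows of this length and the cAMP response element in 1.55%. The window of Wnk1 held 4 GC boxes, that of Stk39 also 4, and that of Oxsr1 held 1 GC box and 1 cAMP response element. GC content was 64.0%, 62.4% and 82.4% in Wnk1, Oxsr1 and Stk39, against a median of 52.4% over all windows. A match is a description of the letters only.

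Among the cotransporters, Slc12a5 had similar CPM in both regions. This gene (Entrez 57138, chromosome 2, 164960846 to 164999731, plus strand) had 170, 147, 191, 197 and 182 CPM in the SNpc libraries, against 168, 180, 184, 174 and 201 CPM in the VTA libraries. The 2 sets of values overlapped almost fully. The means were 177 ± 19.5 CPM in SNpc, against 182 ± 12.7 CPM in VTA (SD over 5 libraries each), and the log2 fold change was -0.035 ± 0.096 (SE). This value is smaller than its standard error and gives no direction. Its sign also turned with glial markers as a covariate (0.031), without SNpc library 2 (0.026) and without VTA library 6 (0.0066). With the length and GC trend removed, the log2 fold change of Slc12a5 was 0.36 ± 0.099 (SE).

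Scaled by length, Slc12a5 lay above 86.3% of the genes tested in SNpc and above 87.5% in VTA (14797 genes with a length). KCC2 is made by most neurons of the brain, so a marker of GABA neurons was set beside it. Gad2, which encodes a GABA-synthesising enzyme, stood at 109 ± 63.5 CPM in SNpc and 188 ± 37.6 CPM in VTA (SD over 5 libraries each). Its libraries ran from 63.6 to 221 CPM in SNpc and from 145 to 246 CPM in VTA, and overlapped. The part of RNA from other neurons in the Slc12a5 level was not tested.

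Slc12a2, which encodes NKCC1 (Entrez 20496, chromosome 18, 57878512 to 57946821, plus strand), was low and uneven within SNpc. It had 13.9, 19.7, 19.6, 36.4 and 32.7 CPM in the SNpc libraries, against 21.2, 33.6, 33.3, 31.3 and 26.1 CPM in the VTA libraries. SNpc library 4 lay above all VTA libraries, SNpc library 6 lay among them, and SNpc libraries 1, 2 and 3 lay below all VTA libraries. The log2 fold change was -0.25 ± 0.23 (SE). It was -0.10 without SNpc library 1, -0.38 without SNpc library 4 and -0.37 without SNpc library 6. It was -0.025 with the length and GC trend removed and -0.014 with glial markers as a covariate. NKCC1 is made in glia as well as in neurons. SNpc library 4 had the highest oligodendrocyte sum, but SNpc library 6, at 405 CPM, did not stand out in those markers, and the part of glial RNA in the Slc12a2 level was not tested further.

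The ratio of Slc12a5 to Slc12a2, again from length-scaled levels, was 17.9, 11.0, 14.2, 7.92 and 8.14 in the SNpc libraries, against 11.6, 7.86, 8.11, 8.14 and 11.3 in the VTA libraries. The mean was 11.8 ± 4.26 in SNpc, against 9.41 ± 1.89 in VTA (SD over 5 libraries each), with overlap. KCC2 mRNA thus exceeded NKCC1 mRNA in every library of both regions, also when scaled by the longest transcript (mean ratio 8.73 in SNpc and 6.94 in VTA).

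Slc12a7, which encodes KCC4 (Entrez 20499, chromosome 13, 73733052 to 73816754, plus strand), was close to the limit of detection. It had 39, 6, 5, 37 and 0 reads in the SNpc libraries, against 301, 125, 76, 91 and 66 reads in the VTA libraries. These counts did not overlap, but the gene passed the filter on low counts only through the VTA libraries. The means were 0.272 ± 0.295 CPM in SNpc, against 1.77 ± 1.01 CPM in VTA (SD over 5 libraries each). Its fitted log2 fold change of -2.69 ± 0.93 (SE) ran from -3.34 to -2.23 over the alternatives. VTA library 1, with the most reads, was also the library with the highest sum of the 10 endothelial and pericyte markers, 112 CPM against 3.47 to 16.5 CPM in SNpc and 7.25 to 16.1 CPM in the other VTA libraries. Without VTA library 1 the log2 fold change was -2.29, and the part of vascular RNA was not tested further.

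**Figure D3:**
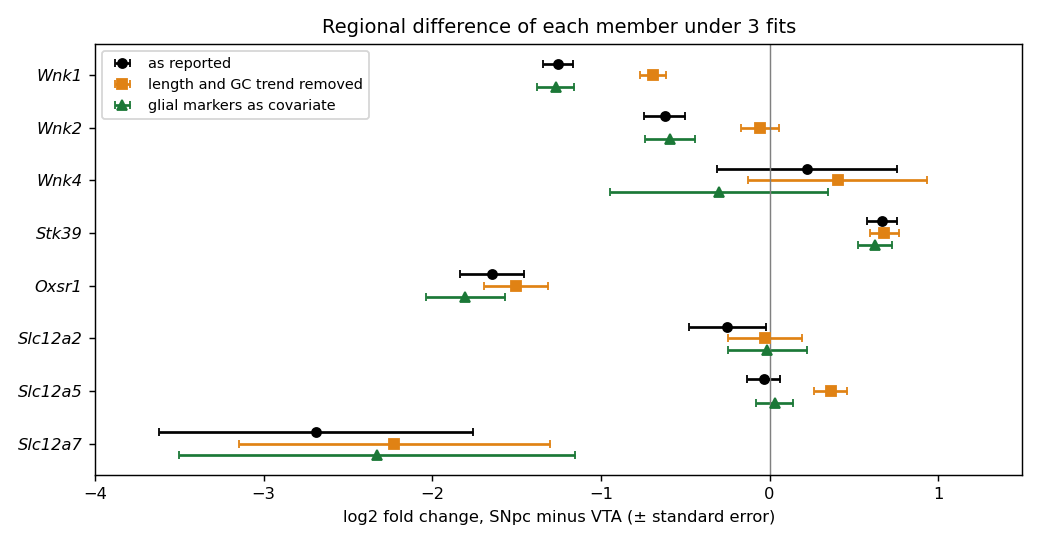
Log2 fold change, SNpc minus VTA (x axis), with its standard error for each of 8 members in the edgeR fit as reported, with the trend of transcript length and GC content removed, and with glial markers as a covariate. Stk39 and Oxsr1 moved little between the fits, whereas Wnk1 went to -0.69, Wnk2 to -0.055 and Slc12a5 to 0.36 with the length and GC trend removed.

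Levels were compared between members only after scaling by the length of the exon union (CPM per kilobase, RPKM). In SNpc the order was Stk39 (55.2 ± 5.82 RPKM), Slc12a5 (23.8 ± 2.62), Wnk1 (16.1 ± 1.65), Wnk2 (10.7 ± 1.31), Oxsr1 (9.26 ± 2.97), Slc12a2 (2.24 ± 0.879), Wnk4 (0.542 ± 0.248) and Slc12a7 (0.0215 ± 0.0233). Only Wnk2 and Oxsr1 among these neighbours overlapped between their libraries. In VTA the order was Wnk1 (38.5 ± 2.52 RPKM), Stk39 (34.7 ± 1.37), Oxsr1 (29.0 ± 3.41), Slc12a5 (24.4 ± 1.71), Wnk2 (16.4 ± 2.75), Slc12a2 (2.66 ± 0.490), Wnk4 (0.465 ± 0.247) and Slc12a7 (0.139 ± 0.0800). There Stk39 and Oxsr1, Oxsr1 and Slc12a5, and Wnk4 and Slc12a7 overlapped.

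The leading kinase transcript per length was thus Stk39 in SNpc and Wnk1 in VTA. The exon union of Wnk1 spans 22825 bases, against 11330 for its longest transcript, and this choice moves its level. Scaled by the longest transcript, Wnk1 stood at 32.5 ± 3.33 RPKM in SNpc, against 77.6 ± 5.08 RPKM in VTA (SD over 5 libraries each). It then changed places with Slc12a5 (29.4 ± 3.24) in SNpc, where the libraries of both genes overlapped, and kept first place in VTA.

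**Figure D4:**
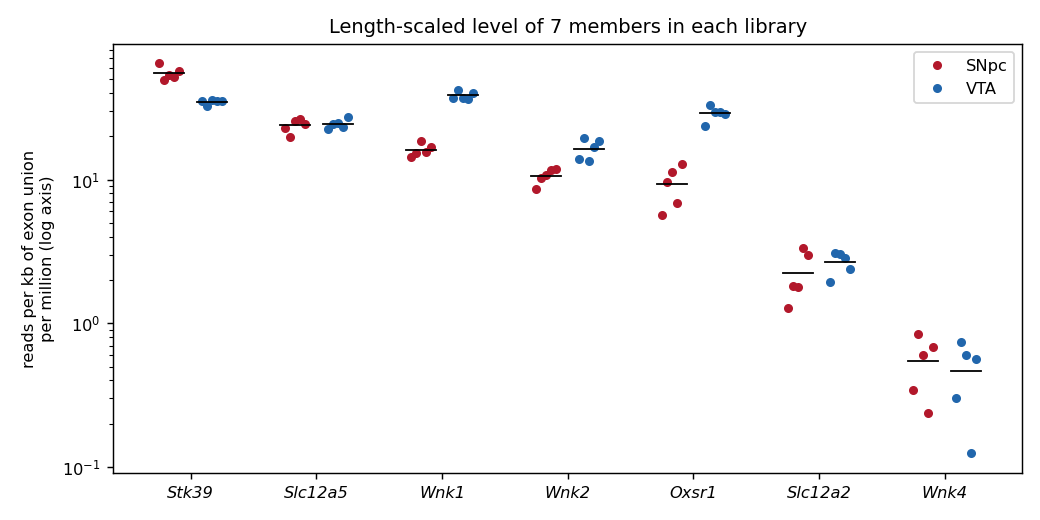
Length-scaled level (CPM per kilobase of exon union, log axis) of 7 members in each library (points), with the mean of each region as a bar; Slc12a7, with a value of 0 in 1 library, is left out. Stk39 was highest in SNpc and Wnk1 in VTA, and Slc12a2 and Wnk4 were lowest in both.

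The spread of the members within a region was computed in each region alone. The members were proposed with the contrast known, and calls in that contrast depend on this spread. Steadiness is therefore given as a description too. The coefficient of variation of CPM was 10.3% in SNpc and 6.55% in VTA for Wnk1, 10.5% in SNpc and 3.95% in VTA for Stk39, and 11.0% in SNpc and 7.01% in VTA for Slc12a5. The medians of all genes tested, not matched to the members by level, were 20.8% in SNpc and 19.3% in VTA. In SNpc 4 of the 8 members lay under that median and in VTA 6 of 8. Oxsr1 and Slc12a2 were the less steady of the well-detected members in SNpc. Oxsr1 was at 32.1% in SNpc and 11.8% in VTA, and Slc12a2 at 39.2% in SNpc and 18.4% in VTA. Slc12a2 differed 2.62-fold between its lowest and highest SNpc library, and Slc12a5 differed 1.33-fold.

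Genes whose deviations from their region's mean were most like those of a member over the 10 libraries were sought among 10157 genes whose log2 CPM averaged 3 or more. The measure was the root mean square difference of these deviations, on the log2 scale. For Wnk1 the nearest were Ddx24 (0.041), Sh3glb1 (0.057) and 9930021J03Rik (0.060). For Slc12a5 they were Ndufs1 (0.061), Tmem216 (0.066) and Fam126b (0.068). For Slc12a2, whose own deviations were larger, they were Zfp667 (0.15), Slc35d1 (0.19) and Gabra5 (0.19). The difference between regions played no part in this measure. Of the 3 nearest to Wnk1, Ddx24 had a log2 fold change of -0.027 between the regions, Sh3glb1 of -1.24 and 9930021J03Rik of -1.06. In the order given, those nearest to Slc12a5 had 0.12, -0.17 and -0.39, and those nearest to Slc12a2 had -0.60, -0.86 and -1.01.

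Other genes of WNK signalling and neuronal chloride handling were taken from 5 lists. The lists were chosen with earlier results of these data known, so their adjusted p-values here and below are a description. The lists held 46 genes in all, of which 43 passed the filter on low counts. Of these, 10 were higher in SNpc and 10 in VTA at an edgeR adjusted p under 0.05 over all genes tested, and 23 did not pass. Over all genes tested 17.8% were called higher in SNpc and 20.4% higher in VTA, 38.2% in all, so the share of called list genes lay near this background. The median log2 fold change of the 43 was -0.051.

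Of 12 regulators of the kinases, 6 were higher in SNpc, where 17.8% of all genes tested were, and 3 were higher in VTA, where 20.4% were. Their median log2 fold change was 0.22, against -0.044 over all genes tested, and whether the list stands apart was not tested. Klhl3, the adaptor through which the Cul3 ubiquitin ligase marks WNK kinases for degradation, was lower in SNpc at 2.07 ± 1.07 CPM, against 9.18 ± 4.01 CPM in VTA (SD over 5 libraries each). The log2 fold change of Klhl3 was -2.15 (standard error 0.39, edgeR adjusted p = 0.000399), and its SNpc libraries reached at most 3.54 CPM where the VTA libraries began at 5.14 CPM. Cul3 itself was higher in SNpc (239 ± 34.4 CPM against 182 ± 6.37 CPM in VTA, log2 fold change 0.39, edgeR adjusted p = 0.00505), a call that ended narrowly with glial markers as a covariate (log2 fold change 0.30, edgeR adjusted p = 0.0514).

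The catalytic subunits of protein phosphatase 1, which dephosphorylates the cotransporters, were also higher in SNpc. Ppp1ca had a log2 fold change of 0.53 (standard error 0.098, edgeR adjusted p = 0.000462) and Ppp1cb of 0.44 (standard error 0.095, edgeR adjusted p = 0.00180). With the length and GC trend removed the value of Ppp1ca was 0.27 and still passed (edgeR adjusted p = 0.0115). Cab39, named here after its values were seen, encodes the scaffold MO25 that raises the activity of SPAK and OSR1. It was 198 ± 16.8 CPM in SNpc and 150 ± 14.2 CPM in VTA, a log2 fold change of 0.40 (standard error 0.095, edgeR adjusted p = 0.00306).

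Of the other Slc12 transporters, the 5 reported here did not pass the edgeR test, at an unadjusted p of 0.291 or more. The kidney cotransporters Slc12a1 (2.81 ± 1.12 CPM against 1.95 ± 1.13 CPM in VTA) and Slc12a3 (0.648 ± 0.777 CPM against 0.297 ± 0.200 CPM in VTA) were near the limit of detection. Slc12a9, an orphan member of the family, was at 3.55 ± 0.984 CPM in SNpc and 4.26 ± 0.866 CPM in VTA.

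Of 4 proteins described as partners of KCC2, 1 was called, where 38.2% of all genes tested were. Ckb, the brain creatine kinase, was 672 ± 53.9 CPM in SNpc, against 394 ± 14.5 CPM in VTA (SD over 5 libraries each), a log2 fold change of 0.77 (standard error 0.080, edgeR adjusted p = 2.20e-06), and its libraries did not overlap. Neto2, an auxiliary subunit of kainate receptors that also binds KCC2, had a log2 fold change of -0.26 (standard error 0.15, edgeR adjusted p = 0.187), but -0.38 without VTA library 2, where it passed (edgeR adjusted p = 0.0257). Epb41l1, the cytoskeletal linker 4.1N, had a log2 fold change of -0.050 (standard error 0.094, edgeR adjusted p = 0.711). With the length and GC trend removed the sign of Epb41l1 turned to 0.34 and it passed (edgeR adjusted p = 0.00739).

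Chloride channels and exchangers numbered 11 tested. Of these, 1 was higher in SNpc, where 17.8% of all genes tested were, and 2 were higher in VTA, where 20.4% were. Clcn3, a chloride-proton exchanger of endosomes and vesicles, was higher in SNpc (125 ± 8.58 CPM against 95.8 ± 7.43 CPM in VTA, log2 fold change 0.39, edgeR adjusted p = 0.00317), and its log2 fold change was 0.70 with the length and GC trend removed. The volume-regulated anion channel subunits Lrrc8a and Lrrc8b were lower in SNpc. Lrrc8b stood at 30.1 ± 10.1 CPM in SNpc and 83.7 ± 10.5 CPM in VTA, a log2 fold change of -1.48 (standard error 0.22, edgeR adjusted p = 0.000103). For Lrrc8a, the obligatory subunit, the log2 fold change was -0.39 (standard error 0.11, edgeR adjusted p = 0.00995), and the call ended with the length and GC trend removed (edgeR adjusted p = 0.0997) and without SNpc library 4 (edgeR adjusted p = 0.0539). Clcn2, named after its values were seen, encodes a chloride channel described in rat nigral dopaminergic neurons. It was at 6.27 ± 1.18 CPM in SNpc and 8.47 ± 0.649 CPM in VTA, a difference that did not pass (log2 fold change -0.43 ± 0.21 (SE), edgeR adjusted p = 0.121).

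Bicarbonate transporters and carbonic anhydrases, which share in setting chloride and pH, numbered 10 tested. Of these, 2 were higher in SNpc, where 17.8% of all genes tested were, and 5 were higher in VTA, where 20.4% were. Their median log2 fold change was -0.64, against -0.044 over all genes tested. Whether this list stands apart was not tested. Slc4a10, a sodium-driven chloride and bicarbonate exchanger of neurons, was higher in SNpc (105 ± 10.6 CPM against 81.7 ± 7.19 CPM in VTA, log2 fold change 0.36, edgeR adjusted p = 0.00960). Slc4a7, a sodium bicarbonate cotransporter, was lower in SNpc (log2 fold change -0.83 ± 0.15 (SE), edgeR adjusted p = 0.000336, and -0.52 with that trend removed), as was the neuronal carbonic anhydrase Car7 (6.21 ± 0.689 CPM against 12.6 ± 2.72 CPM in VTA, log2 fold change -1.02, edgeR adjusted p = 0.000985). Car2, a carbonic anhydrase of oligodendrocytes among other cells, was at 157 CPM in SNpc library 4. The other SNpc libraries had 51.6 to 69.7 CPM. SNpc library 4 also had the highest sum of oligodendrocyte markers, and the part of glial RNA in the Car2 level was not tested further. Car2 did not pass with all libraries (log2 fold change -0.48, standard error 0.29, edgeR adjusted p = 0.218), and without SNpc library 4 it was -0.83 and passed (edgeR adjusted p = 9.29e-05).

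**Figure D5:**
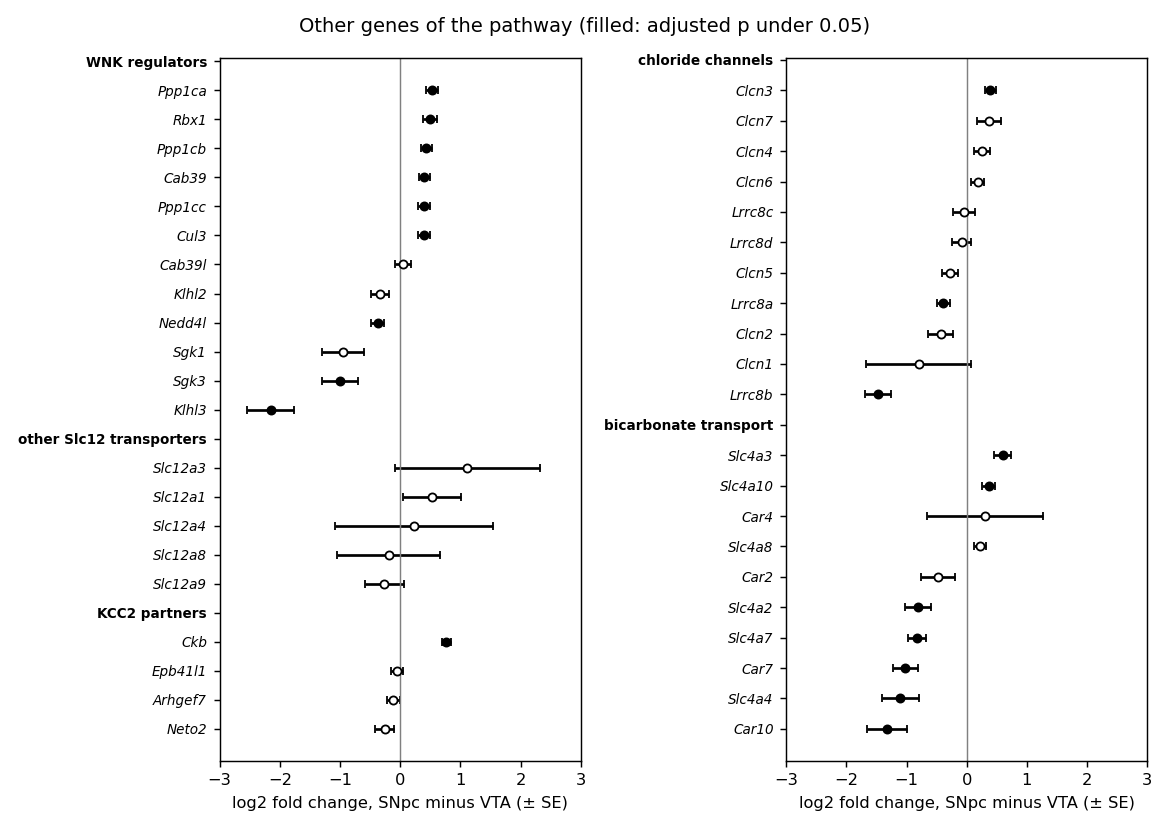
Log2 fold change, SNpc minus VTA (x axis), with its standard error for 42 of the 43 tested genes of 5 lists around the members; filled points passed an adjusted p of 0.05 over all genes tested (edgeR). Among the regulators 6 passed as higher in SNpc and 3 as higher in VTA, none of the 5 other Slc12 transporters drawn passed, and bicarbonate transport had 2 higher in SNpc and 5 in VTA. Over all genes tested 17.8% passed as higher in SNpc and 20.4% as higher in VTA, and no list was tested as a set.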

How the data were processed

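The authors deposited raw, unscaled counts of reads for each gene. Alignment was to mm10 with TopHat2 2.0.8, per the submitters' processing notes. No source used here names the counter, annotation, strand setting or filters. Per the labels' protocols, cDNA came from a whole-transcript amplification kit that does not mark strand. 23008 identifiers matched RefSeq, and 20945 had a transcript length (GENCODE M21). The start and end of each gene span were taken from the RefSeq gene list, and its strand from GENCODE M21.

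Genes were filtered with filterByExpr (minimum count 10), scaled by TMM and fitted with a robust quasi-likelihood model in edgeR 4.0.16 (R 4.3.3), with region as the only term and Benjamini-Hochberg adjustment over 15685 genes. CPM values are TMM-scaled, and log2 CPM used a prior count of 2. The fit was tested on simulated data with 200 changed genes. Of those that passed the filter, it called 67.7% at an absolute log2 fold change of 1 and 77.3% at 2. A gene that did not pass may therefore still differ. DESeq2 1.42.0 and the other alternatives are in the closing section. Length and GC trends were fitted per library with splines.

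Members and lists were chosen with earlier results of these data known. Named genes are the members and, from each list, 2 by lowest p and 2 by highest mean CPM, besides the 3 nearest to each of Wnk1, Slc12a2 and Slc12a5. Epb41l1 is listed as Epb4.1l1. Of the lists, 1 tested gene and 1 marker are not reported here.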

Additional observations from a re-analysis of the deposited data

Results flagged for a closer look

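In 3 of 52 sets of 5 libraries, each set being 1 named gene in 1 region, a single library lay apart from the other 4 by most of the range of the set. Chance gives about 1 such set in 20. Stk39 was at 160 CPM in VTA library 2, below 174 to 177 CPM in the other VTA libraries. Cul3 was at 193 CPM in VTA library 1, above 177 to 181 CPM in the others. Car2 was at 157 CPM in SNpc library 4, above 51.6 to 69.7 CPM in the others.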

How the results depend on the processing

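Across 19 alternatives (DESeq2, other library scales, no filter on low counts, all 12 columns as deposited, the replicate block, removal of the length and GC trend in 2 versions, glial markers as a covariate and leaving out each library), genes higher in SNpc numbered 2793 as reported and 1814 with the replicate block, where genes higher in VTA numbered 2571; the cause was not tested. Between libraries of the same replicate number, deviations from the region's mean had correlations of -0.072 to 0.044 over the 4 shared numbers. Whether such libraries share animals cannot be told from these values. Which of the numbers 4 and 5 in SNpc, and 2 and 3 in VTA, the identical columns belong to is unknown, so the pairs at 2 and 4, and the block with them, rest on an arbitrary choice of number. Leaving out 1 library gave 2284 to 3317 genes higher in SNpc and 2790 to 3193 higher in VTA, and 10 to 11 and 10 to 12 of the pathway genes. Over all alternatives the pathway genes numbered 8 to 14 and 7 to 12. Epb4.1l1 changed sign with the length and GC trend removed (0.34 with the library scale kept, 0.33 refitted). Of 152 values of the members, 146 moved by less than the spread between libraries, and the 6 others are those of Wnk1, Wnk2 and Slc12a5 with that trend removed. That spread is the SD of single libraries. Leaving out 1 of 5 libraries can hardly move a value that far, so the count is no test of those fits. Wnk4 changed sign within its spread, and Slc12a7 ran from -3.34 to -2.23 within its own. Slc12a7 rests on 0 to 39 reads in each SNpc library.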
